A study of Rattus norvegicus with 6 samples.

Results

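Heme, membrane and maturation genes of the red cell lineage were followed through 6 rat trigeminal ganglion libraries. Of these, 5 are made mainly in red cells and their precursors (Alas2, Slc4a1, Epb42, Ahsp and Klf1). The other 3 are genes of heme and iron that most cells use (Alas1, Fech and Tfrc). The 8 genes were found by symbol in the deposited count table, which held 8 of 8 among 29884 genes. All 8 passed the filter on low counts that left 16478 genes, as they would on the conduit libraries alone. The genes were named because the red cell genes were already known to be lower in conduit than in injury in these same libraries. The differences between the groups are therefore given for these 8 genes as a description, with no test.

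RNA from rat trigeminal ganglia, the clusters of sensory neurons that supply the face, was sequenced in 6 libraries from wild type animals. The 3 conduit libraries came from rats whose infraorbital nerve had been chronically constricted (CCI-ION), a model of trigeminal neuralgia, and which then received the treatment labelled SFM-Gel-light @NGC, called a light-driven nerve conduit in the series title. The labels do not spell out SFM-Gel or NGC. The 3 injury libraries carry the CCI-ION label alone, so the nerve injury is common to both groups and no uninjured ganglion is part of the comparison. The labels give days 17, 18 and 19 after injury for conduit samples 1, 2 and 3 and days 14, 15 and 16 for injury samples 1, 2 and 3. Conduit sample 1 and injury sample 3 share batch 2, conduit samples 2 and 3 form batch 3, and injury samples 1 and 2 form batch 1. Day and group cannot be told apart, and nothing in the labels says whether each sample was 1 animal or a pool.

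Heme is made in a chain of enzymes that begins in the mitochondrion with 5-aminolevulinate synthase and ends there with ferrochelatase, which puts iron into the ring. The first enzyme comes in 2 forms from separate genes: Alas1 serves every cell that needs heme for its respiratory chain, and Alas2 serves the developing red cell, where heme goes to hemoglobin. Precursors in the marrow carry a nucleus and divide before they become reticulocytes, which have lost the nucleus but still hold messenger RNA when they enter the blood. A nerve ganglion is not a site where red cells form.

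The stretches just before the start sites of Alas2 and Alas1 are shown because these genes are the 2 forms of one enzyme and those of Klf1 and Fech because Klf1 is the red cell transcription factor of the set and Fech is used both by red cell precursors and by other cells. RefSeq's table for GRCr8, a later build than the mRatBN7.2 named in the submitters' processing notes, held 6 of the 8 genes, without Slc4a1 and Ahsp. Each line gives the 250 bases upstream of the RefSeq start, read 5′ to 3′ along the gene. Capitals mark matches on either strand. One motif was the GATA word, searched as AGATAA or as AGATAG and also with T for the first letter, as TGATAA or as TGATAG, which are letters that GATA factors bind. The other was CCNCNCCC, with N for any base, which holds the letters that Klf1 binds. Matches of different motifs did not overlap.
Alas2 (GRCr8 chrX:22895200-22895449, plus strand): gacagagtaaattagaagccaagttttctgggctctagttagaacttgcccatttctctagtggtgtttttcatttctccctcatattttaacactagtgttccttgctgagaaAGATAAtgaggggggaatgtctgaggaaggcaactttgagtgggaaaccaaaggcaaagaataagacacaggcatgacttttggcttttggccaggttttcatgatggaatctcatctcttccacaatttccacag
Klf1 (GRCr8 chr19:40158652-40158901, minus strand): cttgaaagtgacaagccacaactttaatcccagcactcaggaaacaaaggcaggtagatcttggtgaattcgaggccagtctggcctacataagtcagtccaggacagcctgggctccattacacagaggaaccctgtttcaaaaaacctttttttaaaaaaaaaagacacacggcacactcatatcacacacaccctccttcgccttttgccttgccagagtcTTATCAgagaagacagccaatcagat
Alas1 (GRCr8 chr8:115768643-115768892, minus strand): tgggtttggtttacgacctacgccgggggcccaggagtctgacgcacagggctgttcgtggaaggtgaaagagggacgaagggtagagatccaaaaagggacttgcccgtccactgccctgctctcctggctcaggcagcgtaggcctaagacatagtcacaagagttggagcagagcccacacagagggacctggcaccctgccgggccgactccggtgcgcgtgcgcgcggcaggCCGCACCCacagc
Fech (GRCr8 chr18:60248526-60248775, minus strand): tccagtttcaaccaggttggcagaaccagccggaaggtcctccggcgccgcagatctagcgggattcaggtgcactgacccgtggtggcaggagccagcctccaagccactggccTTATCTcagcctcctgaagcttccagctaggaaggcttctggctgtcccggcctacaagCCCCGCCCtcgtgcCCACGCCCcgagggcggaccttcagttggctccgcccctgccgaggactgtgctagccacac

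Among the 33469 promoters of the table, 27% held a GATA word and 42.8% held CCNCNCCC in the same 250 bases. A GATA word stood between positions -136 and -131 before the start of Alas2, between -26 and -21 for Klf1, between -82 and -77 for Epb42 and between -135 and -130 for Fech. The Alas1 window held CCNCNCCC between positions -13 and -6, the Fech window held it at 2 places, and the Tfrc window at 2 overlapping places. No GATA word was found in the Alas1 or Tfrc windows and no CCNCNCCC in those of Alas2, Klf1 and Epb42, which says only that these letters are not in these 250 bases. Matching letters are no evidence that a factor binds, and the RefSeq start need not be the one used in red cells.

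The libraries held 40.2 M to 41.9 M counts. Levels are counts scaled per 1 M (CPM) after TMM scaling of the libraries, and errors are standard deviations over the 3 samples of a group. Neuron markers summed to 16034 to 22109 CPM in conduit and 17030 to 18330 CPM in injury, and all 10 were present in every library, as were all 7 Schwann cell and 6 satellite glia markers. Injury samples 2 and 3 stood apart from the other 4 libraries in genes of dividing cells: Mki67, a marker of division, was at 5.74, 3.84 and 3.16 CPM in conduit and at 3.51, 43.8 and 28.9 CPM in injury samples 1, 2 and 3. The fold changes of the 8 genes and the medians of the pathway lists are given below with and without those 2 libraries. Over all 16478 genes edgeR's quasi-likelihood test called 1 gene at an adjusted p under 0.05, which is 0.00607% of those tested. This gene, RGD1563601, is outside the 8 and was named after its value was seen. At an unadjusted p under 0.05 there were 389 lower and 493 higher genes, and the median log2 fold change was 0.00.

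Alas2 was at 11.1, 4.90 and 5.20 CPM in the 3 conduit libraries and at 48.0, 87.6 and 67.9 CPM in the 3 injury libraries. Every injury library lay above every conduit library, and the lowest injury library, sample 1, was still 4.33 times the highest conduit library. The group means were 7.06 ± 3.498 CPM in conduit and 67.9 ± 19.8 CPM in injury (SD, n = 3 each), a log2 fold change of -3.26. Without injury samples 2 and 3 the log2 fold change was -2.77. Within the conduit group sample 1 stood out, at 2.20 times the mean of samples 2 and 3.

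Slc4a1 encodes band 3, the chloride-bicarbonate exchanger that is the main protein spanning the red cell membrane. It was at 2.44, 3.31 and 2.71 CPM in conduit and at 12.3, 114 and 93.6 CPM in injury. The groups did not overlap, but injury samples 2 and 3 were 9.27 and 7.62 times injury sample 1. Its log2 fold change was -4.70, the largest of the 8 genes, with all libraries, and -2.12 without injury samples 2 and 3.

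Ahsp encodes the chaperone that holds free alpha-globin until it pairs with beta-globin. It was at 1.62, 1.58 and 1.78 CPM in conduit and at 4.33, 33.0 and 27.9 CPM in injury. The conduit libraries were nearly level, with the highest 1.13 times the lowest, whereas injury samples 2 and 3 were 7.63 and 6.45 times injury sample 1. The log2 fold change was -3.71 with all libraries and -1.38 without injury samples 2 and 3.

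Klf1 encodes the transcription factor that drives beta-globin and many other genes of the erythroblast, the nucleated precursor. It was at 0.941, 1.00 and 0.929 CPM in conduit, from 39, 40 and 37 counts, and at 1.54, 11.2 and 8.19 CPM in injury, from 62, 475 and 340 counts. Injury sample 1 lay close to the conduit libraries: the exact 95% Poisson interval of its level, which covers counting error only, was 1.18 to 1.98 CPM, against 0.718 to 1.37 CPM in conduit sample 2, and these intervals overlap. The log2 fold change was -2.86 with all libraries and -0.69 without injury samples 2 and 3.

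Epb42 encodes protein 4.2, which ties band 3 to the membrane skeleton. It was at 1.11, 1.21 and 0.829 CPM in conduit and at 1.44, 7.66 and 6.39 CPM in injury. Injury sample 1 was 1.20 times the highest conduit library, and its counting interval of 1.09 to 1.86 CPM overlapped that of conduit sample 2, 0.889 to 1.598 CPM. The log2 fold change was -2.30 with all libraries and -0.46 without injury samples 2 and 3.

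**Figure D1:**
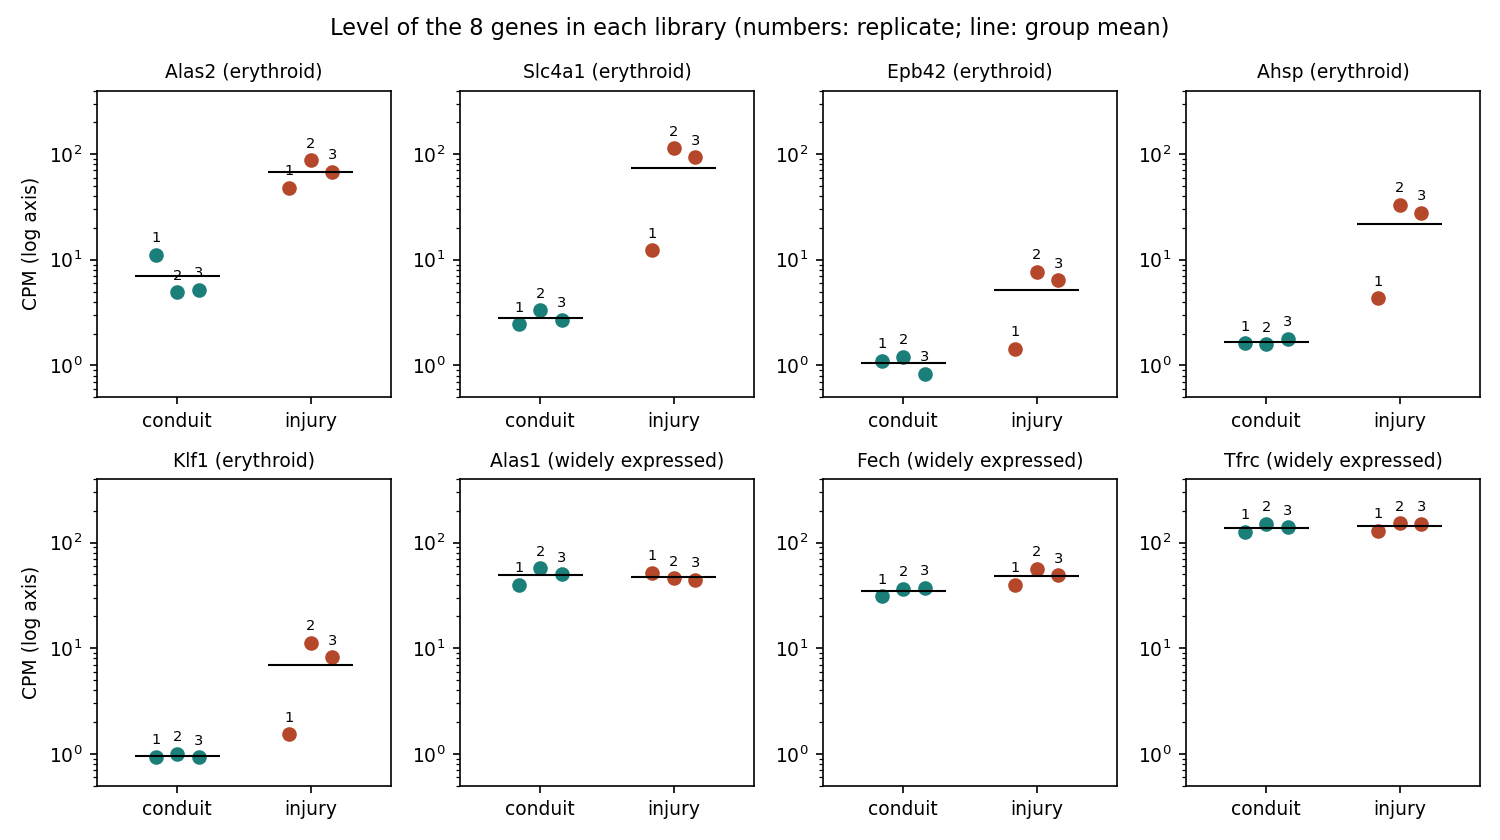
CPM on a log axis (vertical) for each of the 8 genes, with the conduit libraries in green and the injury libraries in red, the replicate number above each point and the group mean as a line. For Slc4a1, Ahsp, Klf1 and Epb42 injury sample 1 lies between the conduit libraries and injury samples 2 and 3, with Klf1 at 1.54 CPM there, whereas for Alas2 it lies with the other injury libraries at 48.0 CPM.

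The genes of heme and iron that most cells use gave a different picture. Alas1 was at 40.1, 56.9 and 49.9 CPM in conduit and at 51.9, 46.2 and 44.4 CPM in injury. The groups overlapped, with means of 49.0 ± 8.45 CPM in conduit and 47.5 ± 3.93 CPM in injury (SD, n = 3 each). The log2 fold change was 0.04 with all libraries and -0.09 without injury samples 2 and 3.

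Tfrc encodes transferrin receptor 1, through which dividing cells and red cell precursors take up iron. It was at 127, 150.4 and 139 CPM in conduit and at 129, 153 and 151 CPM in injury. These groups overlapped too, and the log2 fold change was -0.06, or 0.10 without injury samples 2 and 3.

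Fech, the ferrochelatase gene, was at 31.2, 36.5 and 37.5 CPM in conduit and at 39.9, 56.3 and 49.3 CPM in injury. Every injury library was above every conduit library, injury sample 1 by a factor of only 1.06 over the highest conduit library. The group means were 35.0 ± 3.40 CPM in conduit and 48.5 ± 8.25 CPM in injury (SD, n = 3 each), and the log2 fold change was -0.47, or -0.19 without injury samples 2 and 3.

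All 5 of the red cell genes and 1 of the 3 widely expressed genes had every conduit library below every injury library. Of all genes tested 4.22% did and 5.41% had every conduit library above every injury library, which none of the 8 had. Since the red cell genes were picked on this contrast, nothing is read from their count. The median log2 fold change was -3.26 for the 5 red cell genes and -0.06 for the 3 others. In the one batch that held both groups, conduit sample 1 minus injury sample 3 was -2.61 for Alas2, -5.24 for Slc4a1, -4.07 for Ahsp, -3.06 for Klf1 and -2.47 for Epb42 in log2 CPM. It was -0.15 for Alas1, -0.66 for Fech and -0.25 for Tfrc. In whole-tissue RNA fewer cells of a type and less RNA in each cell cannot be told apart.

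Levels of different genes were compared per length, with the authors' FPKM values, in each library. In conduit Alas2 was at 28.1%, 8.72% and 10.6% of the Alas1 level in samples 1, 2 and 3, and in injury at 93.8%, 192% and 155%. Alas1 was thus the more abundant form in all 3 conduit libraries and in injury sample 1, and Alas2 in injury samples 2 and 3. The sum of both forms was 23.7, 27.5 and 23.9 FPKM in conduit and 45.0, 64.7 and 52.7 FPKM in injury, with the Alas1 part between 18.5 and 25.3 FPKM in all 6 libraries. Fech was at 9.16, 10.3 and 10.3 FPKM in conduit and at 11.4, 17.2 and 14.6 FPKM in injury, so the last enzyme differed far less between libraries than the red cell form of the first.

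**Figure D2:**
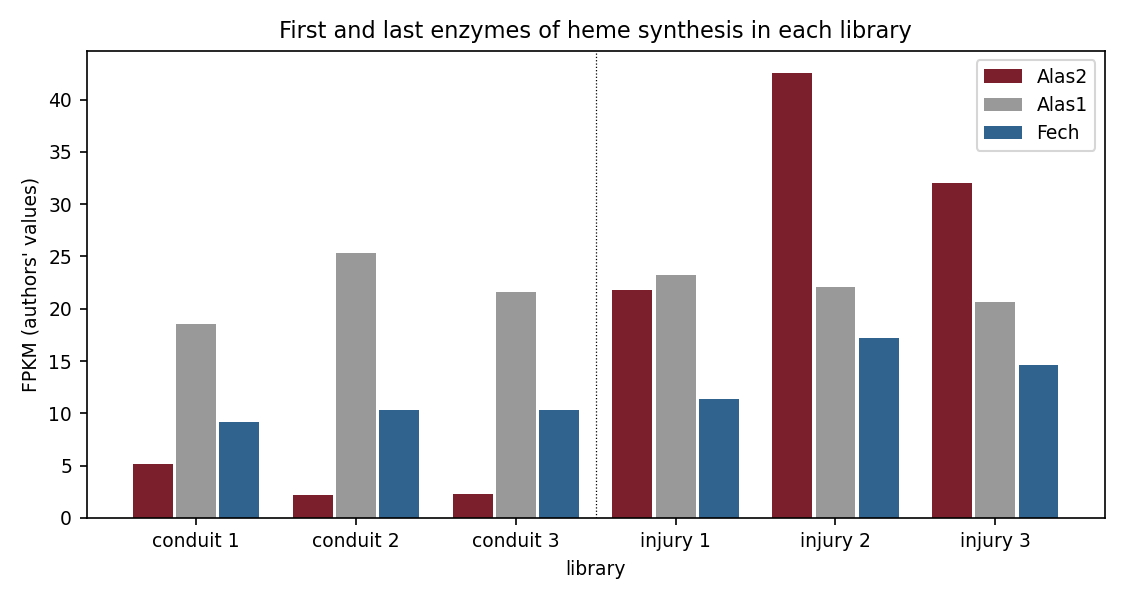
FPKM as deposited by the authors (vertical, bars from 0) for Alas2, Alas1 and Fech in each library, conduit left and injury right. Alas1 stays between 18.5 and 25.3 FPKM throughout, while Alas2 is at 2.21 to 5.19 FPKM in conduit and 21.8 to 42.5 FPKM in injury.

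The order of the 8 genes by FPKM also changed from library to library. In conduit sample 2 Tfrc led at 27.2 FPKM, followed by Alas1 at 25.3, Fech at 10.3, Alas2 at 2.21 and Ahsp at 1.597 FPKM, with Slc4a1, Klf1 and Epb42 at 0.720, 0.640 and 0.462 FPKM. In injury sample 2 Alas2 led at 42.5 FPKM and Ahsp was second at 35.9 FPKM, ahead of Tfrc at 29.8, Slc4a1 at 26.6, Alas1 at 22.1, Fech at 17.2, Klf1 at 7.71 and Epb42 at 3.17 FPKM. In injury sample 1 Tfrc, Alas1 and Alas2 were within 23.5 to 21.8 FPKM, while Ahsp was at 4.39, Slc4a1 at 2.68, Klf1 at 0.988 and Epb42 at 0.556 FPKM.

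The red cell genes did not keep a fixed ratio to each other. Klf1 was at 12.0%, 29.0% and 25.3% of the Alas2 level in conduit and at 4.54%, 18.1% and 17.0% in injury, lowest in injury sample 1. Slc4a1 was at 10.6%, 32.6% and 25.1% of Alas2 in conduit and at 12.3%, 62.6% and 66.4% in injury. Slc4a1 set against Klf1 was at a ratio of 0.882, 1.12 and 0.994 in conduit and 2.71, 3.45 and 3.89 in injury, with no overlap between the groups. Between injury samples 2 and 3 the ratios held closely, with Slc4a1 to Alas2 differing by a factor of 1.06 and Klf1 to Alas2 by 1.06. At the level of Klf1 in conduit, 37 to 40 counts per library, such ratios carry a wide counting error.

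Likeness was measured as the root mean square distance between log2 CPM profiles over the 6 libraries, each centred on its own mean. The ranking covered 12847 other genes that passed the filter and whose log2 CPM averaged 1 or more. Symbols that start with LOC, RGD, AABR or AC followed by digits were left out of it. The 6 genes closest to Alas2 were Hbb-b1 at 0.29, Hba-a1 at 0.33, Hba-a2 at 0.41, Hbb-b2 at 0.51, and Alox15 and Dsp at 0.53 each. The closest of the other 7 genes, Ahsp, was at 0.81, and Slc4a1 was at 1.02. Klf1 lay closest to Epb42, at 0.29, and to Ahsp, at 0.43. The first 4 of the genes nearest to Alas2 encode globin chains, while Alox15 is a lipoxygenase and Dsp a desmosome protein. The globin genes together were at 1317, 528 and 589 CPM in conduit and at 5209, 5382 and 4628 CPM in injury, level across the injury libraries and highest in conduit sample 1 within its group, as Alas2 was. The alpha-globin genes are near-identical copies, so the split of reads among them is uncertain.

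Genes of the same pathway beyond the 8 were read from lists chosen with earlier results of these data known, and were tested by edgeR over all genes. The list of heme synthesis held 6 further enzymes, Alad, Cpox and Ppox among them, all with log2 fold changes below 0 and a median log2 fold change of -0.31. Without injury samples 2 and 3 the median was -0.17. With batch in the design it was -0.45, which rests on conduit sample 1 and injury sample 3 alone. EdgeR called 0 of 6 in either direction after adjustment, and limma-voom 0 of 6, with 4 lower before adjustment (p under 0.05), where 2.36% of all genes were lower and 2.99% higher at that level. DESeq2 called 1 of 6, Cpox, as lower. Over the 23618 genes it fitted, of which 17494 had an adjusted p, DESeq2 called 0.415% lower and 0.47% higher. Cpox, which makes protoporphyrinogen, was at 23.6, 19.2 and 17.1 CPM in conduit and at 25.9, 39.0 and 41.1 CPM in injury (edgeR adjusted p = 0.614). Alad, the second enzyme of the chain, was at 20.9, 21.0 and 23.3 CPM in conduit and at 24.6, 28.3 and 27.4 CPM in injury (edgeR adjusted p = 0.809). In injury sample 1 both were close to the highest conduit library, at 1.06 times it for Alad and 1.10 times it for Cpox.

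A list of mitochondrial heme and iron transport held 16 genes. Most carry heme precursors, heme or iron across the mitochondrial or plasma membrane or build iron-sulphur clusters. EdgeR called 0 of the 16 genes, as did DESeq2 and limma-voom, with 1 lower before adjustment, where 2.36% of all genes were. Their median log2 fold change was -0.12, and -0.11 without injury samples 2 and 3. That 1 gene was Slc25a37, mitoferrin 1, which brings iron into the mitochondria of red cell precursors. It was at 14.4, 15.8 and 11.2 CPM in conduit and at 13.2, 56.7 and 44.7 CPM in injury (edgeR adjusted p = 0.839), so injury sample 1 lay inside the conduit range. Slc25a28, mitoferrin 2, the form used by other cells, was at 30.1, 30.7 and 25.5 CPM in conduit and at 30.8, 30.3 and 35.8 CPM in injury, with overlapping groups. It was not among the genes named for a small p.

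In the lists of iron handling and heme breakdown edgeR called 0 of 13 iron genes, with 2 lower before adjustment, and 0 of 4 breakdown genes, with 0 before adjustment. Over all genes 2.36% were lower and 2.99% higher before adjustment. DESeq2 and limma-voom called 0 in both lists. The median log2 fold change was 0.00 for iron genes and -0.21 for breakdown genes, and -0.06 and -0.03 without injury samples 2 and 3. Tfr2, the second transferrin receptor, which is made in liver and red cell precursors, was at 0.845, 1.16 and 0.829 CPM in conduit and at 1.09, 2.96 and 3.18 CPM in injury (edgeR adjusted p = 0.809). Slc40a1, the iron exporter ferroportin, was at 7.89, 7.08 and 8.76 CPM in conduit and at 8.45, 18.2 and 12.6 CPM in injury (edgeR adjusted p = 0.894). Hmox1, which opens the heme ring, was at 11.0, 6.81 and 10.4 CPM in conduit and at 9.77, 15.1 and 11.1 CPM in injury, with overlapping groups.

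Genes of the red cell membrane spread widely, with log2 fold changes between -5.63 and 0.27 and a median of -0.36. Without injury samples 2 and 3 they lay between -2.34 and 0.63, with a median of -0.33. EdgeR and limma-voom called 0 of 17 tested. Before adjustment (edgeR p under 0.05) 9 were lower and 0 higher, against 2.36% and 2.99% of all genes. Of those 9, Ermap and Rhag would not have passed the filter on the conduit libraries alone, so their injury counts brought them into the test, where they could hardly come out otherwise than lower. DESeq2 called 6 of the 18 it fitted, all lower, where it called 0.415% of all genes lower. Ermap, Kel, Rhag and Rhd were among them, and for Ermap and Rhag the same limit holds. Without injury sample 1 edgeR called 5 of 18 membrane genes, all lower, and 0.219% of the 16879 genes tested in that fit were called lower. Icam4, Ermap and Rhag were in that fit too, and with so few conduit counts could hardly be called otherwise than lower. With any other single library left out edgeR called 0 membrane genes. The fit without injury sample 1 was singled out after its values were seen. Rhd, a Rhesus protein, was at 0.555, 0.326 and 0.301 CPM in conduit and at 2.01, 9.89 and 9.78 CPM in injury (edgeR adjusted p = 0.291), and Kel, the Kell blood group protein, was at 0.652, 0.979 and 0.452 CPM in conduit and at 2.16, 19.6 and 16.4 CPM in injury (edgeR adjusted p = 0.514). By contrast Ank1, the ankyrin named after red cells but also made in neurons and chosen after its values were seen, was at 338, 416 and 431 CPM in conduit and at 416, 405 and 381 CPM in injury.

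Among regulators of red cell formation edgeR and limma-voom called 0 of 8 tested. Before adjustment (edgeR p under 0.05) 4 were lower and 0 higher, against 2.36% and 2.99% of all genes. Of those 4, Epor and Gata1 would not have passed on the conduit libraries alone. The median log2 fold change was -1.34, and -0.38 without injury samples 2 and 3. DESeq2, which also fitted Gfi1b, called 5 of 9 as lower: Epor, Gata1, Gfi1b, Nfe2 and Tal1. Among all genes it fitted, 0.415% were called lower. Gfi1b had 3, 3 and 0 counts in conduit and 9, 176 and 105 counts in injury. With so few counts in conduit, Epor, Gata1 and Gfi1b could hardly be called otherwise than lower. Gata1, the master transcription factor of the lineage, had 2, 1 and 2 counts in conduit and 30, 240 and 139 counts in injury, or 0.746, 5.68 and 3.35 CPM in injury (edgeR adjusted p = 0.207). Injury sample 1 was thus above all conduit libraries, on small counts. Epor, the erythropoietin receptor, had 8, 4 and 16 counts in conduit and 17, 211 and 93 counts in injury (edgeR adjusted p = 0.678). Tal1, which works with Gata1 and is also made in vessels, was at 3.52, 3.11 and 1.88 CPM in conduit and at 2.41, 23.4 and 15.6 CPM in injury (edgeR adjusted p = 0.829).

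For maturation genes edgeR and limma-voom called 0 of 12 tested. Before adjustment (edgeR p under 0.05) 7 were lower and 0 higher, against 2.36% and 2.99% of all genes. Of those 7, Car1, Trim10 and Tspo2 would not have passed on the conduit libraries alone. The median log2 fold change was -0.46, and -0.30 without injury samples 2 and 3. DESeq2, which also fitted genes below the filter, called 7 of 14 as lower, where it called 0.415% of all genes lower. Car1, Trim10 and Tspo2 are among its calls. So are Pklr and Trim58 (named after its values were seen), which did not pass the filter. Such genes could hardly be called otherwise than lower. Hemgn, a nuclear protein of precursors, was at 0.724, 0.829 and 0.452 CPM in conduit and at 3.03, 28.2 and 22.2 CPM in injury (edgeR adjusted p = 0.435). Tspo2, a red cell relative of the mitochondrial translocator protein, had 0, 4 and 2 counts in conduit and 19, 82 and 76 counts in injury (edgeR adjusted p = 0.496). Pklr, the pyruvate kinase of red cells and liver, and Icam4, a red cell adhesion protein, did not pass the filter and had no count in the conduit libraries (both named after their values were seen). Pklr had 2, 91 and 51 counts in injury, and Icam4 had 0, 32 and 16. Without injury sample 1 edgeR called 4 of 14 maturation genes, 2 of 9 regulators and 1 of 16 transport genes, all lower. In that fit 0.219% of all genes tested were called lower. It also took in Gfi1b, Trim58 and Pklr, which did not pass the main filter. Genes with so few conduit counts could hardly be called otherwise than lower. With any other single library left out edgeR called 0 in these lists.

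**Figure D3:**
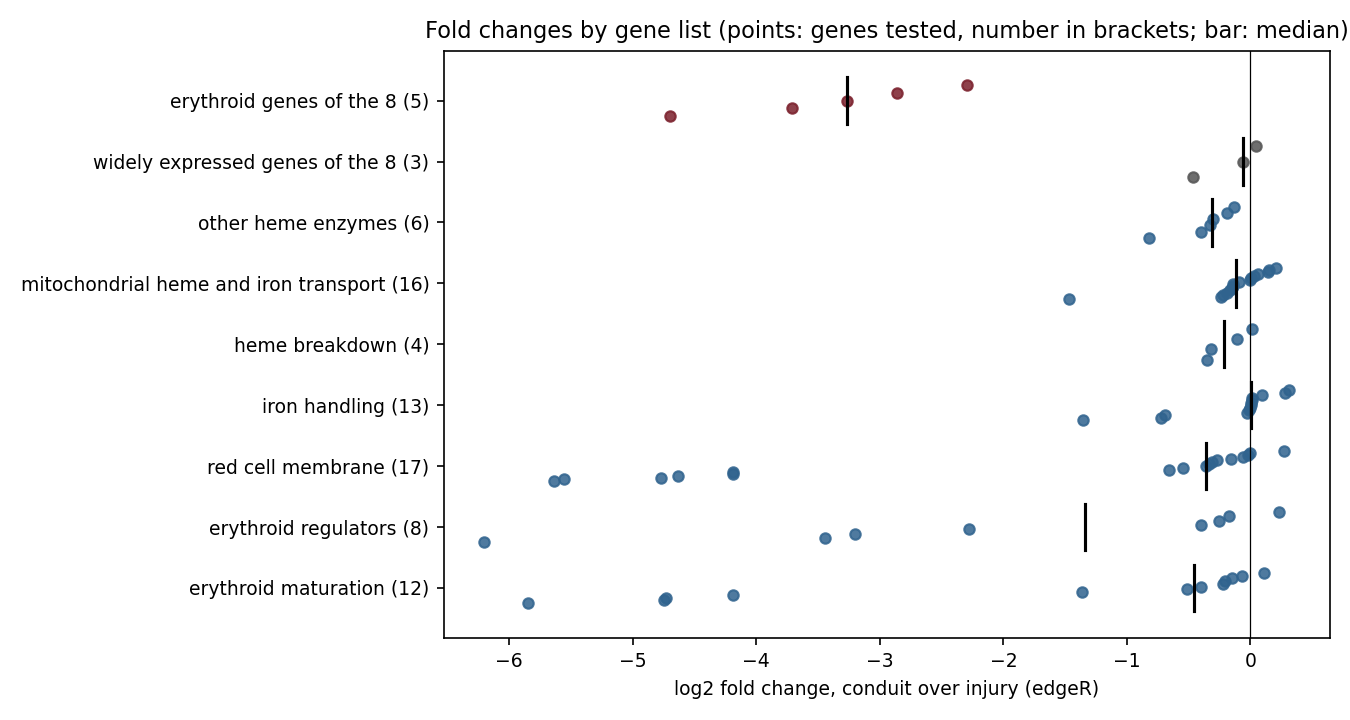
Log2 fold change, conduit over injury (horizontal), for every tested gene of each list, with the number tested in brackets and the median as a bar. The 5 red cell genes lie between -4.70 and -2.30, the 3 widely expressed ones between -0.47 and 0.04, and the lists of membrane, regulator and maturation genes reach from near 0 to -5.63, -6.20 and -5.85, or to -2.34, -4.08 and -3.17 without injury samples 2 and 3, which is not drawn.

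Markers of dividing cells, neutrophils, megakaryocytes and bone were high in the same injury libraries as the precursor genes. The 15 division genes summed to 37.5, 33.5 and 24.3 CPM in conduit and to 26.7, 145 and 98.6 CPM in injury. The 14 neutrophil genes, of which Ltf had no count in any library, summed to 16.9, 48.7 and 22.3 CPM in conduit and to 74.8, 967 and 197 CPM in injury. The 10 megakaryocyte and platelet genes, with Gp1bb at 0 throughout, summed to 21.5, 17.3 and 12.2 CPM in conduit and to 20.8, 109.9 and 39.2 CPM in injury. The 12 bone genes summed to 208, 150 and 174 CPM in conduit and to 172, 363 and 476 CPM in injury. Each of these sums was higher in injury samples 2 and 3 than in the other 4 libraries, as were Slc4a1, Ahsp, Klf1 and Epb42, and only the neutrophil sum was above all conduit libraries in injury sample 1. The part of these cells in the result was not tested.

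EdgeR and limma-voom called none of these marker genes, and DESeq2 called 2 of 15 division, 6 of 13 neutrophil and 4 of 9 megakaryocyte genes as lower, with 1 of 12 bone genes lower and 1 higher, where it called 0.415% of all genes lower and 0.47% higher. Of the genes edgeR tested, 3 neutrophil genes, 1 megakaryocyte gene and 5 B cell genes would not have passed the filter on the conduit libraries alone. That megakaryocyte gene, Treml1, was among the DESeq2 calls. So were Gp1ba and Gp9, which did not pass the filter (both named after their values were seen). Before adjustment (edgeR p under 0.05) 7 of 15 division genes, 11 of 13 tested neutrophil genes, 3 of 6 megakaryocyte genes and 6 of 12 bone genes were lower and 1 bone gene was higher. At that level 2.36% of all genes were lower and 2.99% higher. Of 7 tested B cell genes 3 were lower at that level. The B cell sum, mostly Ebf1, was 57.4 to 64.3 CPM in conduit and 55.0 to 87.8 CPM in injury. The macrophage sum was 123 to 277 CPM in conduit and 116 to 178 CPM in injury, and the endothelial sum was 267 to 377 CPM in conduit and 268 to 328 CPM in injury, both overlapping. Of 10 tested macrophage genes 2, the complement genes C1qb and C1qc, were higher before adjustment (edgeR p under 0.05), with every conduit library above every injury library, and of 10 endothelial genes none was. Schwann cell genes summed to 42203 to 48427 CPM in conduit and 28923 to 35346 CPM in injury, and satellite glia genes to 1845 to 4346 CPM in conduit and 2027 to 3733 CPM in injury. Before adjustment 4 of 7 Schwann cell genes and 1 of 6 satellite glia genes were higher, against 2.99% of all genes. DESeq2 called 4 of the 7 Schwann cell genes, Egr2, Pmp22 and Prx among them, as higher in conduit.

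**Figure D4:**
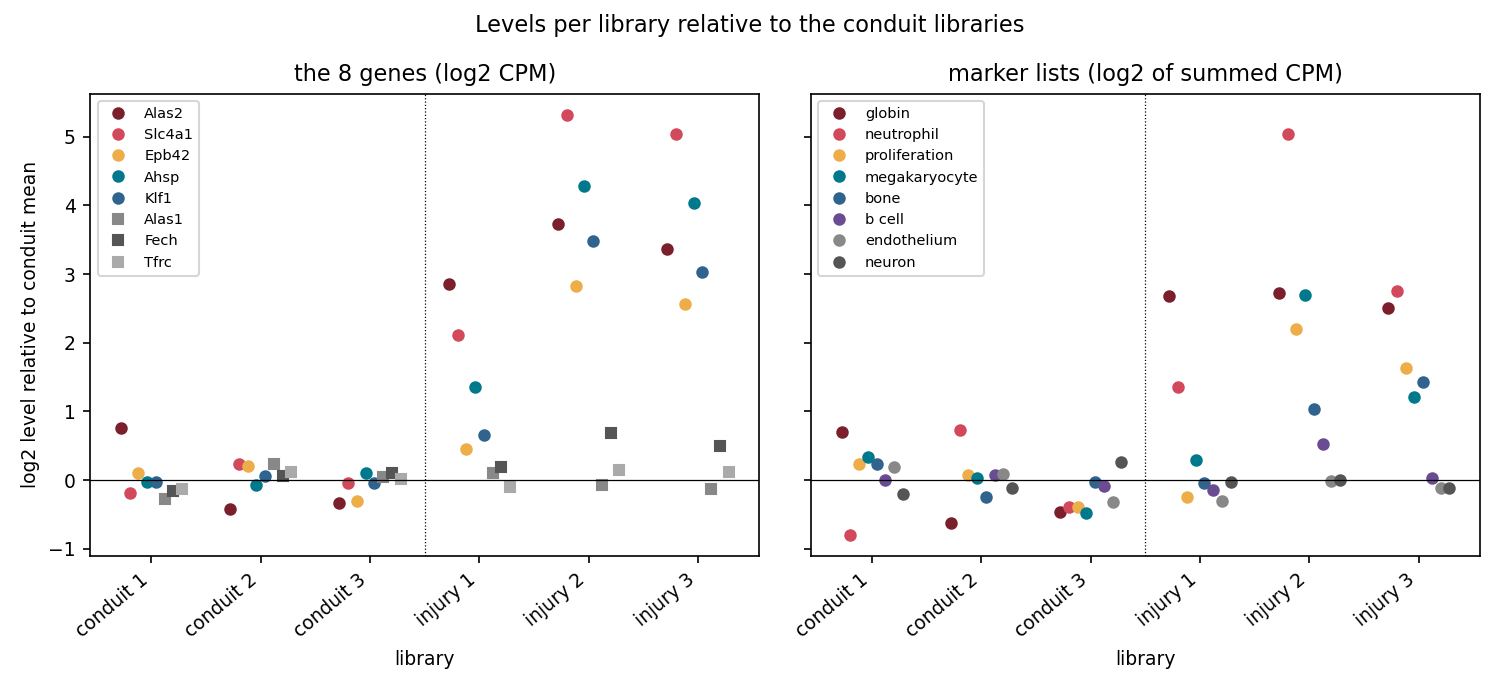
Log2 level relative to the mean of the conduit libraries (vertical) in each library, for the 8 genes on the left and for the summed CPM of marker lists on the right. Alas2 and the globin sum are high in all 3 injury libraries, whereas Klf1, Epb42, division, megakaryocyte and bone markers are high mainly in injury samples 2 and 3.

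Across single libraries the contrast inside the injury group can be counted, with the libraries chosen after their values were seen and no test. Injury samples 2 and 3 were each at least 2 times injury sample 1 for 4 of the 5 red cell genes, all but Alas2, for 0 of the 3 widely expressed genes and for 6.37% of all genes tested. The same held for 6 of 17 membrane genes, 4 of 8 regulators, 4 of 12 maturation genes, 12 of 15 division genes and 0 of 7 globin genes. Injury sample 1 was at least 2 times the highest conduit library for Alas2, Slc4a1 and Ahsp and for 6 of 7 globin genes. It was so for 4 of 17 membrane genes, 3 of 12 maturation genes, 1 of 8 regulators, 3 of 13 neutrophil genes, 2 of 6 megakaryocyte genes, 0 of 15 division genes and 0 of 12 bone genes, and for 0.88% of all genes tested. Of the genes so counted, Rhag, Trim10, Tspo2, Gata1, Treml1 and Hba-a3 would not have passed the filter on the conduit libraries alone. With so few conduit counts they could hardly come out otherwise. Injury samples 1 and 2 carry the label of batch 1, at days 14 and 15, and injury sample 3 that of batch 2, at day 16. The cause of the gap between sample 1 and samples 2 and 3 was not tested.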

How the data were processed

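RNA-seq of 6 rat trigeminal ganglion samples, 3 conduit and 3 injury, was analysed. The deposited counts are whole reads per gene symbol, unscaled. The FPKM values the authors deposited equal the counts scaled by library total and gene length, with the same length in every library for 14394 of 14394 genes checked (tolerance 0.001), so they are no second measurement. The submitters' processing notes name fastp, HISAT2, SAMtools, HTSeq, DESeq2 and mRatBN7.2; no version, annotation or strand setting is given there. In R 4.3.3, edgeR 4.0.16 kept genes by filterByExpr (minimum 10 counts), scaled by TMM and compared groups by its robust quasi-likelihood F test without covariates, adjusted by Benjamini-Hochberg at 0.05. DESeq2 1.42.0 and limma 3.58.1 served as alternatives. Log2 CPM used a prior count of 2. Scripts were tested on simulated data. The 8 genes and all lists were chosen with earlier results of these data known. The labels name no separate animals, so p-values measure the spread between samples. Same-numbered samples did not deviate together (r = -0.42, 0.06 and -0.07 over genes), so numbers were not used as pairs. With 3 against 3, an exact permutation test of 1 value can give no p under 0.1. Genes named were the 8, up to 4 per list with the smallest p, 7 fixed genes and the 6 most like Alas2. Some others are marked as chosen after their values were seen. Slc25a28, Ermap, Car1, Gfi1b, Ebf1, Ltf and Gp1bb were also named outside these rules. Some genes of the lists are not reported here by name.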

Additional observations from a re-analysis of the deposited data

How the results depend on the processing

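The median log2 fold change of the 5 red cell genes lay between -3.69 and -3.04 when 1 library at a time was dropped, and that of the 3 widely expressed genes from -0.12 to 0.01. The fold change of Alas2 minus that of Alas1 ranged from -3.92 to -2.98. Without injury samples 2 and 3, which leaves 1 injury library assumed to vary like the conduit ones, the red cell median was -1.38. The widely expressed median was then -0.09. The 5-gene median was -3.12 with batch in the design. Only batch 2 held both groups, so this fit sets conduit sample 1 against injury sample 3 alone. There the widely expressed median was -0.25 and the Alas2 minus Alas1 difference -2.46. Taken directly from batch 2 they were -0.25 and -2.46, which is no second check. The count of genes called over all genes was 1; it was 6 with no filter on low counts, 209 by DESeq2, 3 and 7 by limma on log2(FPKM + 0.1) and log2(FPKM + 1), 23 without injury samples 2 and 3, and 0 with batch in the design. With the replicate number as a block it was 0, and no pairing of the numbers is seen in the data. With 1 library left out it ranged from 0 (without conduit sample 3) to 38 (without injury sample 1); it was 35 without injury sample 3 and 6 without conduit sample 1. No direction larger than the spread between libraries reversed among the 128 single-gene values and 112 list medians recomputed under 16 alternatives. Of these, 115 single-gene values and 84 list medians stayed within that spread of the main result, and the rest moved further. The regulator median, -1.34 in the main fit, was -2.77 without injury sample 1, with 9 genes tested in place of 8. It was -0.38 without injury samples 2 and 3. The cause of these shifts was not tested. Klf1 and Epb42 in conduit rest on 33 to 48 counts per library, which limits their ratios.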
